A study of Mus musculus with 8 samples.

Results

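Described here are 10 protein-coding genes off chromosome 4, out of 54838 gene entries counted in mouse oocytes. These 10 carried reads in oocytes that had lost BAF250a, where control oocytes carried few or none. Other genes that share this pattern are counted further below. The 10 genes are Gsto2, Pxdn, Bfsp1, Prr15l, Spesp1, Rassf4, Pak3, Slc27a2, Pik3c2g and Epcam. They were chosen by their read counts in these libraries, namely a level near 0 in control and a clear level in knockout oocytes at the germinal vesicle (GV) stage, at metaphase of the second meiotic division (MII), or at both. Differences between knockout and control oocytes are therefore given for these 10 genes as a description and not as a test. The 4 groups were knockout GV, control GV, knockout MII and control MII, with 2 libraries each. Knockout mice (genotype BAF250aGKO) lacked BAF250a through Gdf9-cre, a recombinase that acts in the oocyte and leaves the somatic cells of the follicle untouched. Control mice are labelled wildtype. Knockout and control mice were all on the C57BL/6 strain, and each library pooled 5 to 10 oocytes. The labels state neither the age of the mice, nor the floxed exon, nor whether control mice carried floxed alleles. The labels do not say that libraries of a group came from separate animals, so the spread between them may be technical. In such pools, a gene active in few oocytes and one weakly active in every oocyte cannot be told apart.

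BAF250a, the product of Arid1a, is a subunit of the SWI/SNF-type BAF complex that contacts DNA. The complex slides and evicts nucleosomes at promoters and enhancers. It is known both for opening chromatin and for keeping some genes silent. An oocyte grows with active transcription, falls silent when full-grown at the GV stage, and matures to MII on stored mRNA, so that a transcript seen at MII was normally made earlier. The 10 genes are not known as members of a common pathway. They encode a detoxifying enzyme, an extracellular peroxidase, a fatty acid transporter, 3 signalling proteins, a lens filament protein, an epithelial adhesion molecule, a sperm head protein and a proline-rich protein.

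Libraries held 19587421 to 33289150 reads in genes. Arid1a checked the labels: it had 86 and 312 reads in knockout GV, against 8178 and 10928 in control GV, and 1109 and 576 in knockout MII, against 42047 and 39148 in control MII. All 16 markers of the oocyte, among them Gdf9, Zp3 and Nlrp5, had reads in every group. They summed to 57772 and 62357 CPM (reads relative to all reads in genes, without scaling) in knockout GV, 60465 and 64666 in control GV, 28056 to 32829 in knockout MII and 31733 to 34112 in control MII. Markers of granulosa and cumulus cells, the somatic neighbours of the oocyte, summed to 67.1 to 85.6 CPM in knockout GV, 131 to 163 in control GV, 102 to 120 in knockout MII and 165 to 172 in control MII. These sums were lower in the knockout libraries at either stage. Single markers went both ways at GV. Inha had 173 and 284 reads in knockout GV and 1509 and 425 in control GV, and Fshr 36 and 8 against 6 and 6.

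The 10 genes together held 10623 and 6959 reads in knockout GV libraries 1 and 2, against 54 and 42 in control GV libraries 1 and 2. At MII they held 9623 and 7034 reads in knockout libraries, against 125 and 193 in the control libraries, called a and b because their columns share a name. In each control GV library 6 of the 10 had at most 3 reads, and none of the 10 was at 0 in any knockout library. Below, CPM are relative to the reads in tested genes and scaled by trimmed mean of M values, and errors are the SD of 2 libraries.

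**Figure D1:**
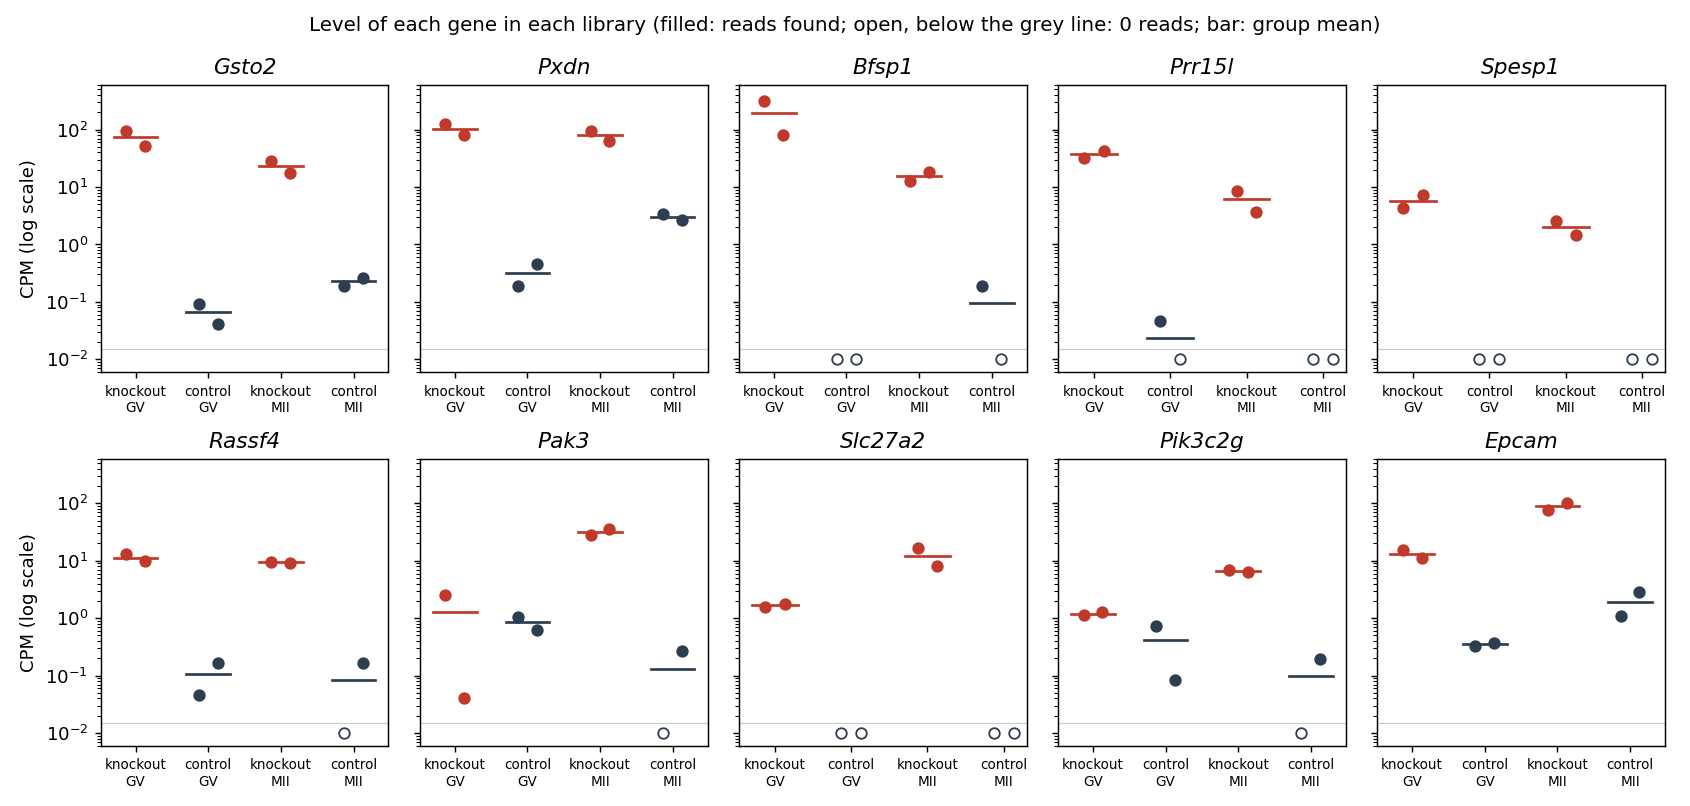
CPM on a log axis for each of the 10 genes in each library of knockout GV, control GV, knockout MII and control MII oocytes, with bars at group means and open circles at 0 reads. Knockout points lie above control points at each stage for 9 genes, while Pak3 at GV has 1 knockout point above and 1 below its control points.

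Among the enzymes and transporters, Gsto2 (chr19:47865534-47886324, plus strand, mm10) encodes an omega-class glutathione transferase that reduces dehydroascorbate. It had 1692 and 1272 reads in knockout GV, against 2 and 1 in control GV. Knockout MII libraries had 962 and 475 reads and control MII libraries 5 and 8. The groups did not overlap at either stage, and the GV ratio of 1072 has a 95% counting interval of 366 to 5199, which covers counting error only. Gsto2 averaged 74.2 ± 30.6 CPM in knockout GV and 0.0674 ± 0.036 CPM in control GV, and 23.3 ± 7.58 CPM in knockout MII and 0.228 ± 0.0509 CPM in control MII (log2 fold at MII 6.63 ± 0.56, SE). It lies within the span of Cfap43 on the opposite strand but shares no exon base with it.

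Pxdn (chr12:29937608-30017658, plus strand) encodes peroxidasin, which cross-links collagen IV in basement membranes. It had 2197 and 1936 reads in knockout GV, against 4 and 11 in control GV, and 3177 and 1702 in knockout MII, against 87 and 81 in control MII. Control MII oocytes thus held a low level, 3.01 ± 0.474 CPM against 79.4 ± 21.5 CPM in knockout MII, so that Pxdn was raised there rather than switched on. The log2 fold was 8.26 ± 0.54 at GV and 4.72 ± 0.44 at MII.

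Slc27a2 (chr2:126552407-126588243, plus strand) encodes FATP2, which takes up long-chain fatty acids and activates very long ones. It was at 0 reads in all 4 control libraries. Knockout GV libraries had 28 and 43 reads and knockout MII libraries 558 and 214. Against a floor of 3 counts per library, Slc27a2 was at least 12.7-fold higher in knockout GV and at least 115-fold higher in knockout MII. Of its exon bases, 11.2% are shared with Gm26697 on the opposite strand, and the strand setting of the counting is not given.

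The signalling genes were Rassf4, Pak3 and Pik3c2g. Rassf4 (chr6:116633008-116673952, minus strand), a RAS-association domain protein, had 228 and 237 reads in knockout GV, against 1 and 4 in control GV. Rassf4 reads at MII were 325 and 247 in knockout and 0 and 5 in control libraries. Its level was close in the knockout oocytes of both stages, 9.50 ± 0.252 CPM at MII and 11.4 ± 2.21 CPM at GV.

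Pak3 (chrX:143518591-143797796, plus strand) encodes a kinase that Rac and Cdc42 activate to remodel actin. Its level differed clearly between the genotypes at MII and overlapped at GV. It had 961 and 940 reads in knockout MII, against 0 and 8 in control MII. Knockout GV libraries had 44 and 1 reads and control GV libraries 23 and 15, so the groups overlapped at GV. The GV log2 fold of 0.54 ± 1.21 was -4.20 without knockout GV library 1. Control GV oocytes held 0.848 ± 0.31 CPM of Pak3 and control MII oocytes 0.132 ± 0.187 CPM, so that this gene had reads in control oocytes before maturation.

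Pik3c2g (chr6:139587221-139969284, plus strand) encodes a class II phosphoinositide 3-kinase known mainly from liver. It had 20 and 31 reads in knockout GV, against 16 and 2 in control GV. Later, at MII, 233 and 169 reads were counted in knockout and 0 and 6 in control libraries (log2 fold 5.96 ± 1.45). Its knockout GV libraries lay above the control GV libraries by a small margin, at 1.13 and 1.28 CPM against 0.743 and 0.0838 CPM.

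The structural and surface genes were Bfsp1 and Epcam. Bfsp1 (chr2:143826528-143863173, minus strand) encodes filensin, an intermediate filament protein of the lens fibre cell. It had 5494 and 1977 reads in knockout GV and 0 in both control GV libraries, at least 1483-fold higher. At MII, Bfsp1 had 428 and 493 reads in knockout and 5 and 0 in control libraries. The knockout GV libraries differed 3.81-fold from each other in CPM, the widest gap among the 10 genes after that of Pak3.

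Epcam (chr17:87635979-87651129, plus strand) encodes a cell adhesion molecule of epithelia that is also present on germ cells. It had 271 and 274 reads in knockout GV, against 7 and 9 in control GV. At MII it had 2601 and 2656 reads in knockout libraries, against 28 and 85 in control libraries. Epcam was therefore low rather than absent in control oocytes, and the log2 fold was similar in size at both stages, 5.22 ± 0.56 at GV and 5.50 ± 0.52 at MII. Markers of ovarian surface epithelium, another source of Epcam, summed to 63.4 to 67.1 CPM in knockout GV, 62.4 to 73.8 in control GV, 35.9 to 37.6 in knockout MII and 32.4 to 44.9 in control MII. Of the 11 markers, Upk1b, Krt19 and Msln were at 0 in all 4 groups. Most of the GV sums came from Aldh1a2, with 1316 and 1333 reads in knockout GV and 1331 and 841 in control GV. Krt8 had 1 read in each knockout GV library, against 44 and 79 in control GV. Other markers went the other way. Wt1 had 25 and 0 reads in knockout MII and 0 in both control MII libraries. Muc16 averaged 1 CPM in knockout MII and 0.569 CPM in control MII. The part of such cells in the Epcam reads was not tested.

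The last pair were Spesp1 and Prr15l. Spesp1 (chr9:62270729-62282208, minus strand) encodes a protein of the equatorial segment of the sperm head. It was at 0 reads in all 4 control libraries, and had 76 and 177 reads in knockout GV and 87 and 39 in knockout MII. These amount to at least 43.8-fold higher at GV and at least 18.9-fold higher at MII. Prr15l (chr11:96928104-96937830, plus strand), a small proline-rich protein with little known function, had 573 and 1011 reads in knockout GV and 1 and 0 in control GV. At MII it had 291 and 99 reads in knockout and 0 in both control libraries, at least 57.8-fold higher. The GV ratio of 1718 has a counting interval of 308 to 67902, since it rests on 1 control read.

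All 10 genes passed the filter on low counts. With edgeR's quasi-likelihood test over all genes and an adjusted p below 0.05, 8 of the 10 were called higher at GV and 10 at MII, where 0.597% and 1.70% of the 15572 genes tested were called higher. Since these contrasts chose the genes, nothing is read from those counts. The difference of the knockout effect between the stages passed for 0 of the 10 and for 0.0835% of all genes. At an unadjusted p below 0.05 it was higher for 2 and lower for 3 of the 10. That threshold was passed, in either direction, by 1787 of the 15572 genes tested. The same groups chose the genes, so nothing is read from these counts of the stage difference either. For Spesp1 and Slc27a2, without reads in any control library, that difference cannot be estimated (SE 2972.84 and 5484.95). The genes not called at GV were Pak3 and Pik3c2g. Leaving out 1 of the 4 GV libraries left 4 or 5 calls at GV, with 4 when control GV library 1 was the one left out and 5 for each of the others. Both knockout libraries lay above both control libraries for 9 of the 10 at GV and for 10 at MII, as they did for 22.6% and 21.7% of all tested genes.

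Corrected for exon length, the genes covered a wide range of levels in knockout oocytes. In knockout GV the order in TPM, the length-corrected measure, was Bfsp1 (176 ± 109), Gsto2 (72.1 ± 10.3), Pxdn (24.6 ± 0.766), Prr15l (23.5 ± 10.4) and Epcam (14.3 ± 0.942). Spesp1 (4.86 ± 2.98), Rassf4 (2.91 ± 0.249), Slc27a2 (1.1 ± 0.388), Pak3 (0.26 ± 0.35) and Pik3c2g (0.234 ± 0.0842) followed. Libraries of neighbours in this order overlapped for Pxdn and Prr15l, for Spesp1 and Rassf4, and for Pak3 and Pik3c2g. At GV Bfsp1 stood above 94.5% of tested genes by TPM and Pik3c2g above 10.7%.

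In knockout MII Epcam came first with 110 ± 7.45 TPM, above 92.3% of tested genes. Gsto2 (27.8 ± 12), Pxdn (23 ± 8.71) and Bfsp1 (17.8 ± 2.71) followed with overlapping libraries. Slc27a2 (9.3 ± 5.46) and Pak3 (9.15 ± 0.341) overlapped as well, and Prr15l (4.49 ± 2.94) overlapped with Slc27a2 above it and Rassf4 (2.84 ± 0.4) below it. Spesp1 (1.88 ± 0.926) and Pik3c2g (1.45 ± 0.252) came last and overlapped with each other.

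The genes differed in how their knockout level, as a share of the library, changed over maturation. CPM do not give the amount of a transcript per oocyte, so a higher share is not shown to be a higher amount. Both knockout MII libraries lay above both knockout GV libraries for Epcam, Pak3, Slc27a2 and Pik3c2g, and below them for Gsto2, Bfsp1, Prr15l, Spesp1 and Rassf4, while those of Pxdn overlapped. Over all tested genes 33.3% lay above in this way and 43.6% below. Epcam was at 88.9 ± 16.1 CPM in knockout MII and 13.3 ± 2.85 CPM in knockout GV (log2 fold 2.74 ± 0.45). Bfsp1 was at 15.7 ± 4.15 CPM in knockout MII and 196 ± 162 CPM in knockout GV (-3.65 ± 0.69), and Prr15l at 6.2 ± 3.49 and 37.1 ± 6.58 CPM (-2.58 ± 0.60). The quasi-likelihood test called 3 of the 10 higher at MII (Pak3, Slc27a2 and Epcam) and 3 lower (Gsto2, Bfsp1 and Prr15l), where 19.9% and 29.1% of all tested genes were called higher and lower. The choice of genes used the knockout levels at both stages, so these counts too are a description. Maturation moved the median of all genes by a log2 of -0.33.

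**Figure D2:**
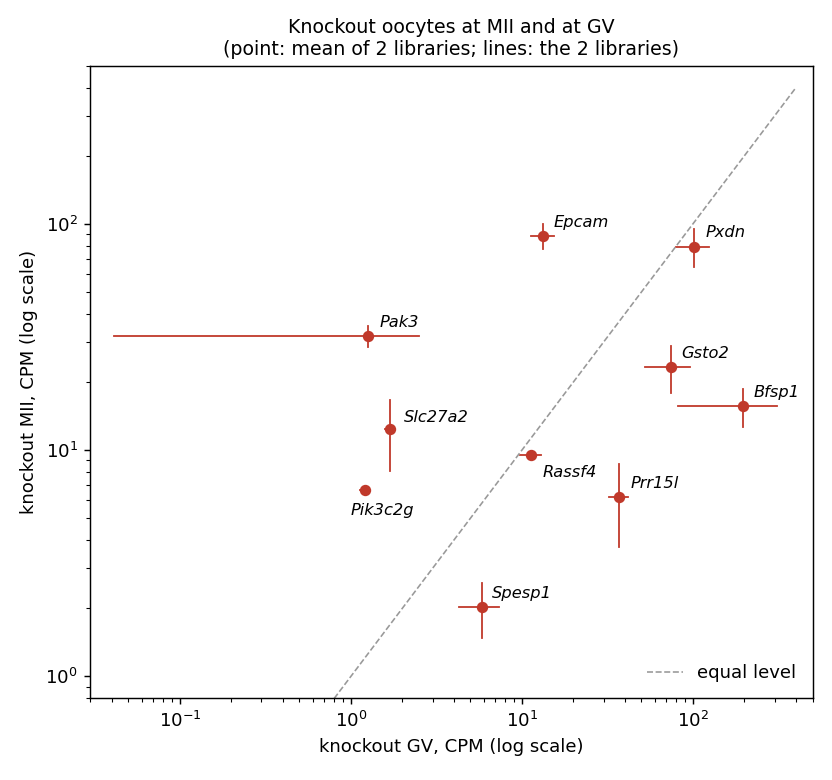
Mean CPM of each gene in knockout MII (vertical, log axis) against knockout GV (horizontal, log axis), with lines that span the 2 libraries and a dashed line of equal level. Epcam, Pak3, Slc27a2 and Pik3c2g lie above the dashed line, Gsto2, Bfsp1, Prr15l and Spesp1 lie clearly below it, and Pxdn and Rassf4 lie near it.

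In knockout GV, 6 of the 10 had a higher CPM in library 1 and 4 in library 2, with a median ratio of 1.46 between the libraries. In knockout MII, 7 were higher in library 1 and 3 in library 2, again with a median ratio of 1.46. The Arid1a reads left were fewer in library 1 at GV and fewer in library 2 at MII. Across all 8 libraries, log2 CPM of the 45 pairs of genes correlated with a median Pearson r of 0.878, from 0.344 to 0.994. The genes were chosen for their difference between the genotypes, which every pair shares.

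The start sites of these genes were described because the genes share the pattern they were chosen for but no known pathway. RefSeq (GRCm38.p6, the mm10 assembly) lists windows of 250 bases before to 50 after a start for 9 of the 10, 13 windows in all, and none was matched for Prr15l. The windows of Gsto2, Pxdn and Slc27a2 are shown as examples rich in CpG, the dinucleotide that marks broadly used promoters, that of Bfsp1 as an example poor in it and that of Epcam as one in between. All are written 5′ to 3′ on the strand of the gene, with CpG in capitals.
Gsto2, chr19:47865295-47865594, plus strand: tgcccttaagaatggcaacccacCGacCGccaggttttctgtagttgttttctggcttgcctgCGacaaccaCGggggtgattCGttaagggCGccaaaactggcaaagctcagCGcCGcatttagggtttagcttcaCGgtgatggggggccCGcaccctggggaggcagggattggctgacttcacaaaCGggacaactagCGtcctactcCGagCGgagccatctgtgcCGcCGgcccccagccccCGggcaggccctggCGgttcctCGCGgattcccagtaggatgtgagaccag
Pxdn, chr12:29937786-29938085, plus strand: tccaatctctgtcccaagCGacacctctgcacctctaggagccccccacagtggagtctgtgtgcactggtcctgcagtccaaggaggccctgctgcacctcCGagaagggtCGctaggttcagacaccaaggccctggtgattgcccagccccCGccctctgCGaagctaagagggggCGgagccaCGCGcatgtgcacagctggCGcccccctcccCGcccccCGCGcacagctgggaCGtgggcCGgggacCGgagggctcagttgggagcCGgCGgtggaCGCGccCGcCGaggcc
Slc27a2, chr2:126552774-126553073, plus strand: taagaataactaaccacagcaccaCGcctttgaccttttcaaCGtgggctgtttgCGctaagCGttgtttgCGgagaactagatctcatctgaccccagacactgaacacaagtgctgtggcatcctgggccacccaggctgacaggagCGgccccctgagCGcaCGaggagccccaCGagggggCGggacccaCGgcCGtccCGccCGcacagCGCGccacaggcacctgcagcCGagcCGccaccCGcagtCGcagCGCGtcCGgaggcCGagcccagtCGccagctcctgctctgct
Epcam, chr17:87635729-87636028, plus strand: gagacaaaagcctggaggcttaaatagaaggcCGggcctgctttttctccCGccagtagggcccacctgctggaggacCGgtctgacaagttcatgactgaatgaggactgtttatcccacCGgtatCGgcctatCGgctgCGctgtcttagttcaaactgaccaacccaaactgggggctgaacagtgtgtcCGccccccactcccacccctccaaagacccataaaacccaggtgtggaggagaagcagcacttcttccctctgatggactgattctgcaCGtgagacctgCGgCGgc
Bfsp1, chr2:143863124-143863423, minus strand: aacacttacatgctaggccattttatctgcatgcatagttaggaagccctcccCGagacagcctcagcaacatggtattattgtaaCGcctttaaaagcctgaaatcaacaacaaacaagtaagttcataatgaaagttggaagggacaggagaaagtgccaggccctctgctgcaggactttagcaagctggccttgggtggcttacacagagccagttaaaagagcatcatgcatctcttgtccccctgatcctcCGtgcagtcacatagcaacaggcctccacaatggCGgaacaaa

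The windows printed hold 20 CpG for Gsto2, 21 for Pxdn, 25 for Slc27a2, 11 for Epcam and 4 for Bfsp1. Over all 32851 windows of the table the median was 7, with quartiles of 3 and 20. Over the first window of each of the 9 genes the median was 15, with a lowest value of 2 for Pik3c2g. All windows together come from 27025 genes, some with several starts, so these medians cover unlike sets. The first windows of Spesp1, Rassf4 and Pak3 hold 19, 15 and 14, and the other windows of Pak3 hold 3 and 4. Second windows, not printed, hold 31 for Gsto2 and 4 for Pik3c2g. Of the first windows, those of Bfsp1 and Pik3c2g alone were below the median of all windows.

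Searched on both strands, the GC box GGGCGG was found in 6 of the 13 windows (of Gsto2, Pxdn, Spesp1, Rassf4, Slc27a2 and Epcam) and in 35.7% of all windows. For Gsto2 it lay in the second window and not in the one printed above. The CCAAT box was also found in 6 of the 13 (of Gsto2, Pxdn, Rassf4 and Pak3) and in 37.4% of all windows. The E-box CACGTG was found in 2 of the 13 (of Pak3 and Epcam) and in 7.15% of all windows, and the TATA box TATAAA in 1 (of Pik3c2g) and in 13.6% of all windows. The AP-1 letters TGANTCA and the homeodomain letters TAATTA were in none of the 13 windows, and in 7.81% and 5.29% of all windows. None of these words contains another, and several windows of a gene can overlap.

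Position was not used to choose the genes beyond leaving out chromosome 4, so their neighbours could be tested. Within 100 kb of a gene of the list, 26 neighbours were tested. Of them, 1 rose and 0 fell at GV, or 3.85% and 0%, against 0.597% and 0.392% of all genes. At an unadjusted p below 0.05 edgeR had 2 higher and 3 lower of the 26 at GV, against 1687 of all 15572 genes in either direction. DESeq2 also called 0 lower. At MII, 2 rose and 3 fell, or 7.69% and 11.5%, against 1.70% and 3.44% of all genes. The median log2 fold of the neighbours was -0.09 at GV and -0.28 at MII (-0.17 with groups without reads placed at the floor), against 0.00 and -0.01 over all genes.

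Cfap58, a gene of cilia and the sperm flagellum that starts 51.4 kb downstream of Gsto2 on the same strand, was the neighbour that rose at both stages. It had 558 and 584 reads in knockout GV, against 18 and 25 in control GV (log2 fold 4.88 ± 0.63, edgeR adjusted p = 0.00555). At MII it had 94 and 55 reads in knockout and 0 and 1 in control libraries, a ratio of 140 with a counting interval of 24.7 to 5550 (adjusted p = 0.00306). The groups did not overlap at either stage. The GV call was lost when knockout GV library 1 or either of the control GV libraries was left out, with log2 folds of 4.69 to 5.07 over all fits that left out a library. The MII call held in all 8 such fits. Gsto1, the paralogue of Gsto2 that ends 0.744 kb before it, had 68 and 42 reads in knockout GV and 35 and 51 in control GV (log2 fold 0.57 ± 1.69, adjusted p = 0.987). Its MII libraries, 94 and 1 reads in knockout and 0 and 42 in control, overlapped.

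Tmem72, a membrane protein gene 5.11 kb upstream of Rassf4 on the same strand, was higher at MII, with 2948 and 1785 reads in knockout and 154 and 303 in control libraries (log2 fold 3.28 ± 0.35, adjusted p = 0.00117). That call held in all 8 fits that left out a library. At GV it had 1199 and 1551 reads in knockout and 781 and 854 in control libraries (0.87 ± 0.32, adjusted p = 0.322).

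The neighbours that fell at MII were Hdc, Olfr214 and Cfap43. Hdc, which makes histamine and lies 5.42 kb from Slc27a2, had 0 reads in both knockout MII libraries and 61 in each control MII library, at least 21.5-fold lower. Olfr214, an olfactory receptor gene 72.4 kb from Rassf4, had 1 and 0 reads in knockout MII, against 111 and 268 in control MII. Cfap43, of the sperm flagellum, had 19 and 6 reads in knockout MII, against 80 and 59 in control MII (-2.62 ± 0.50, adjusted p = 0.0172). Leaving out any 1 of the 8 libraries ended the Hdc call. The Cfap43 call was lost without knockout MII library 2 or control MII library a (log2 fold -3.42 to -2.06 over all such fits), and the Olfr214 call held in all 8.

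**Figure D3:**
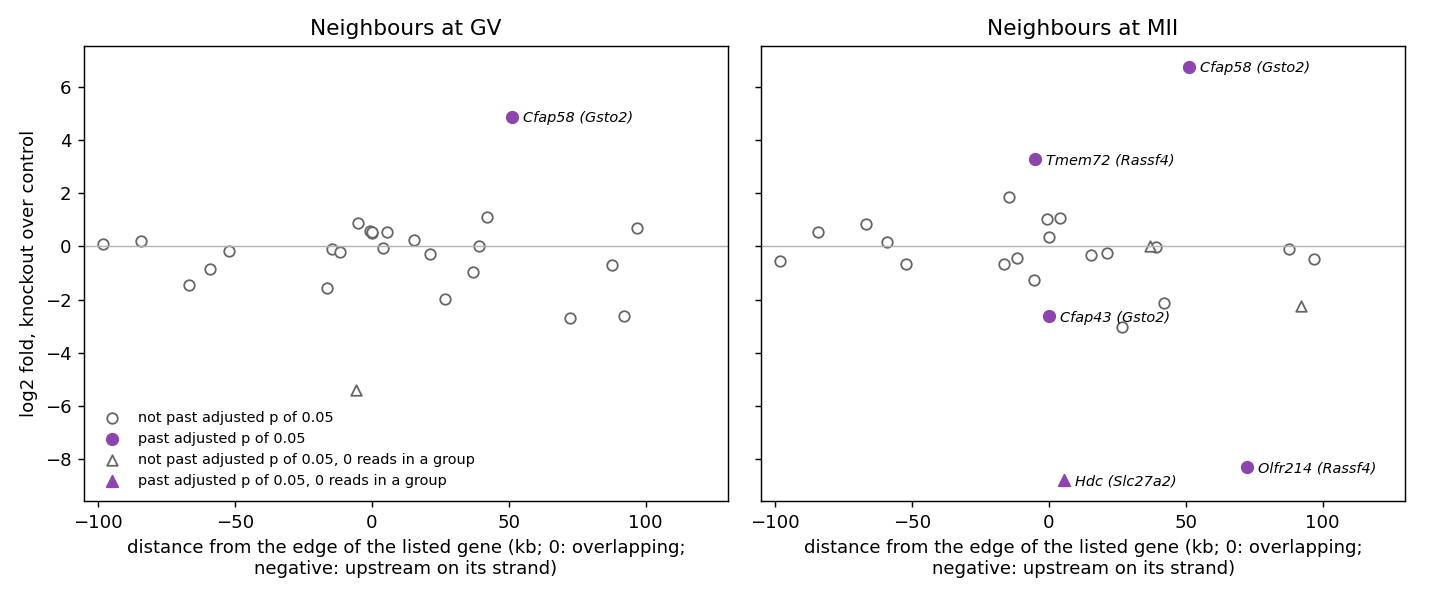
Fitted log2 fold of knockout over control oocytes for the 26 tested genes within 100 kb, against their distance in kb from the nearest edge of the gene they neighbour, at GV and at MII, with filled points past an adjusted p of 0.05 and triangles where a group had 0 reads, whose fitted fold is no size. Cfap58 beside Gsto2 is high in both panels, at 4.88 and 6.76, and Tmem72 beside Rassf4 is filled at MII, at 3.28.

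Relatives and pathway partners of the 10 genes were described from 9 lists of 231 genes, of which 164 were tested. At GV 1 rose and 0 fell, or 0.61% and 0%, against 0.597% and 0.392% of all genes. At an unadjusted p below 0.05 edgeR had 16 higher and 8 lower of the 164 at GV, against 1687 of all 15572 genes in either direction. DESeq2 called 5 higher and 3 lower at GV after adjustment, and its share over all genes is not given here. At MII 4 rose and 10 fell, or 2.44% and 6.1%, against 1.70% and 3.44% of all genes. The median log2 fold was -0.03 at GV and -0.17 at MII (-0.10 with groups without reads placed at the floor).

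The fatty acid list, around Slc27a2, held the member that rose at both stages. Abcd3, a transporter of fatty acids into peroxisomes, had 1975 and 2698 reads in knockout GV, against 282 and 682 in control GV (log2 fold 2.42 ± 0.43, adjusted p = 0.031). At MII it had 724 and 416 reads in knockout and 55 and 107 in control libraries (2.72 ± 0.45, adjusted p = 0.00968). Leaving out any 1 of the 4 GV libraries ended its GV call (log2 fold 1.97 to 3.09), and its MII call held in all 8 fits. Acsl6, which activates fatty acids, rose at MII to 16 ± 10.8 CPM in knockout, against 0.734 ± 0.431 CPM in control (4.45 ± 0.91, adjusted p = 0.0238), a call lost without knockout MII library 2 or control MII library b. Hadha, of mitochondrial β-oxidation, fell at MII (-2.15 ± 0.34, adjusted p = 0.00895), as did the fatty acid binding protein gene Fabp5 (-1.56 ± 0.37, adjusted p = 0.0391), which kept its call in 2 of 8 fits. Of 25 tested genes in this list, 1 rose at GV, and 2 rose and 2 fell at MII. Of the relatives of Slc27a2, Slc27a1, Slc27a3 and Slc27a4 did not pass, and Slc27a5 and Slc27a6 had too few reads to be tested. Slc27a4 was at 0.0526 ± 0.0323 CPM in knockout MII and 1.22 ± 0.422 CPM in control MII (edgeR adjusted p = 0.0826).

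Of 19 tested glutathione transferases, 0 passed at GV (1 higher and 3 lower at an unadjusted p below 0.05), and at MII Gstm5 and Gstp2 rose and Gstm2 fell. Gstm5 was at 466 ± 185 CPM in knockout MII and 158 ± 58.4 CPM in control MII (1.57 ± 0.36, adjusted p = 0.0348). Gstp2 was at 11.9 ± 6.94 and 2.25 ± 0.462 CPM in knockout and control MII (2.39 ± 0.60, adjusted p = 0.0482). Gstm2 had 0 reads in knockout MII and 42 and 32 in control MII, at least 13.2-fold lower. The Gstm5 call held in 4 of 8 fits that left out a library, the Gstp2 call in 1, and the Gstm2 call in 7, being lost without control GV library 1. These families hold near-identical copies, between which reads may be split.

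Of 23 tested peroxidases and basement membrane genes, 4 fell at MII and 0 rose, with a list median of -1.43 (-0.86 with groups without reads placed at the floor), and 0 passed at GV (2 higher and 3 lower at an unadjusted p below 0.05). The collagen IV chain gene Col4a2, whose product peroxidasin cross-links, was at 0.164 ± 0.232 CPM in knockout MII and 7.17 ± 1.72 CPM in control MII (-5.34 ± 0.99, adjusted p = 0.0154). Another chain gene, Col4a4, went the other way, with 56 and 31 reads in knockout MII and 0 in both control MII libraries. That is at least 13.2-fold higher, though it did not pass (edgeR adjusted p = 0.0936). The lysyl oxidase gene Lox, which cross-links collagen, had 4 and 0 reads in knockout MII and 233 and 157 in control MII (-6.70 ± 1.47, adjusted p = 0.0391). The laminin gene Lamb2 had 1 read in each knockout MII library, against 25 and 42 in control MII, and Lama5, of the same family, was at 6.28 ± 0.883 CPM in knockout MII and 19.1 ± 3.83 CPM in control MII (adjusted p = 0.0402). The calls of Col4a2 and Lamb2 held in all 8 fits, that of Lox in 2 and that of Lama5 in 0. Beside these falls, the markers of granulosa and cumulus cells given above were lower in knockout MII, with 7 of 19 markers at 0 in knockout MII and 1 of 19 in control MII. Markers of theca and stroma summed to 4.92 to 13.8 CPM in knockout MII and 19.8 to 21 CPM in control MII, with 7 and 6 of 13 at 0. Those of endothelium summed to 24.8 to 28.6 CPM in knockout MII and 35.3 to 47.6 CPM in control MII, with 5 and 2 of 9 at 0. Those of blood and immune cells summed to 6.94 to 8.67 CPM in knockout MII and 9 to 58.3 CPM in control MII, with 10 and 7 of 15 at 0. The summed markers of knockout and control MII libraries did not overlap for any of these 4 lists, with the narrowest margin for blood and immune cells. Of their Cd74, control MII library b held 1095 reads and library a 0. Each list also held markers with a higher mean in knockout MII. Among them were Nr5a2 (42 against 26.4 CPM in control MII), Kitl, Pdgfra, Tek and Laptm5. The part of these cells in the result was not tested.

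In the other lists few genes passed. The nuclear lamin gene Lmna (-1.65 ± 0.34, adjusted p = 0.0249) fell at MII, lost without knockout GV library 1, knockout MII library 2 or control MII library b. So did Pik3r2, a regulatory subunit of phosphoinositide 3-kinase, with 1 and 0 reads in knockout MII against 18 and 60 in control MII, a call held in all 8 fits. The epithelial transcription factor gene Elf3 fell too (-1.36 ± 0.32, adjusted p = 0.0373), a call held in 0 of 8 fits. Inpp4b, of the phosphoinositide list, did not pass (edgeR adjusted p = 0.14 at GV and 0.0782 at MII). It had 45 and 100 reads in knockout GV, 5 and 72 in knockout MII and 0 in every control library. None of 10 tested acrosome genes, 18 RASSF and Hippo genes or 20 genes of PAK, Rac and Cdc42 signalling passed at either stage by edgeR. At an unadjusted p below 0.05 the acrosome list had 0 higher and 1 lower at each stage. The RASSF and Hippo list had 3 higher and 0 lower at GV, and 3 higher with 1 lower at MII. In the PAK list 0 differed at GV, and 1 was higher with 4 lower at MII. Of all 15572 genes tested, 1687 at GV and 3450 at MII were below that unadjusted p, in either direction.

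The paralogues named here did not pass the test. Pak4 was at 418 ± 63.1 CPM in knockout MII and 422 ± 29.8 CPM in control MII (-0.01 ± 0.25, adjusted p = 1). Rassf5 was at 478 ± 65.1 CPM in knockout MII and 411 ± 25.4 CPM in control MII (0.21 ± 0.27, adjusted p = 0.703). Pik3c2b was at 127 ± 19.8 and 79.5 ± 6.72 CPM in knockout and control MII (0.68 ± 0.26, adjusted p = 0.167). Bfsp2, whose product pairs with filensin in the lens, had 9 and 0 reads in knockout GV, against 13 and 25 in control GV, with no call (adjusted p = 0.89).

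**Figure D4:**
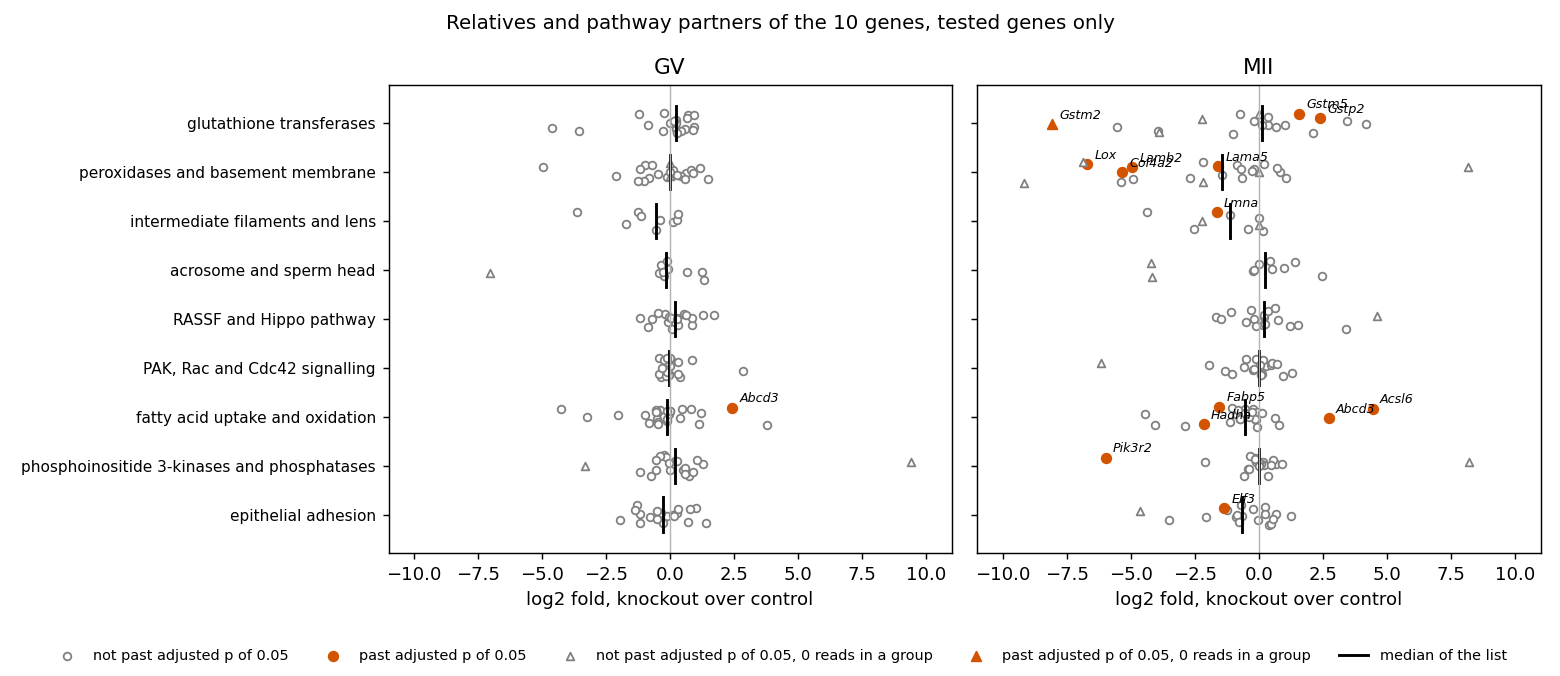
Fitted log2 fold of knockout over control oocytes at GV and at MII for the tested genes of the 9 lists, with filled symbols past an adjusted p of 0.05, triangles where a group had 0 reads and bars at list medians. Abcd3 is filled at both stages, at 2.42 and 2.72, and the 4 filled basement membrane genes at MII all lie below 0.

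To see how many other genes behave like these 10, the pattern was written as at most 3 reads in each control library of a stage and at least 1 CPM (without scaling) in each knockout library of it. That form was met by 36 genes at GV, 68 at MII and 13 at both stages. Of the 10 genes, Bfsp1, Gsto2, Prr15l, Slc27a2 and Spesp1 met it at GV and Prr15l, Slc27a2 and Spesp1 at MII. The other 5 had more than 3 reads in at least 1 control library of each stage. With the genotypes exchanged, 45 genes met it at GV, 148 at MII and 3 at both stages. Chromosome 4, which carries Arid1a, held 13 of the 91 genes that met it at either stage, or 14.3%, and 6.15% of all tested genes. The other 78 included 40 protein-coding genes, of which 5 are among the 10 described here. At the edge of 1 CPM off chromosome 4, Chac2 lay just inside at GV with 24 and 55 reads in knockout GV and 0 and 1 in control GV, and Gm5117 just outside with 32 and 22 reads in knockout GV and 0 in both control libraries. At MII Extl2 lay just inside with 39 and 29 reads in knockout and 1 and 2 in control libraries, and Ecel1 just outside with 62 and 28 reads in knockout and 0 in control libraries.

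**Figure D5:**
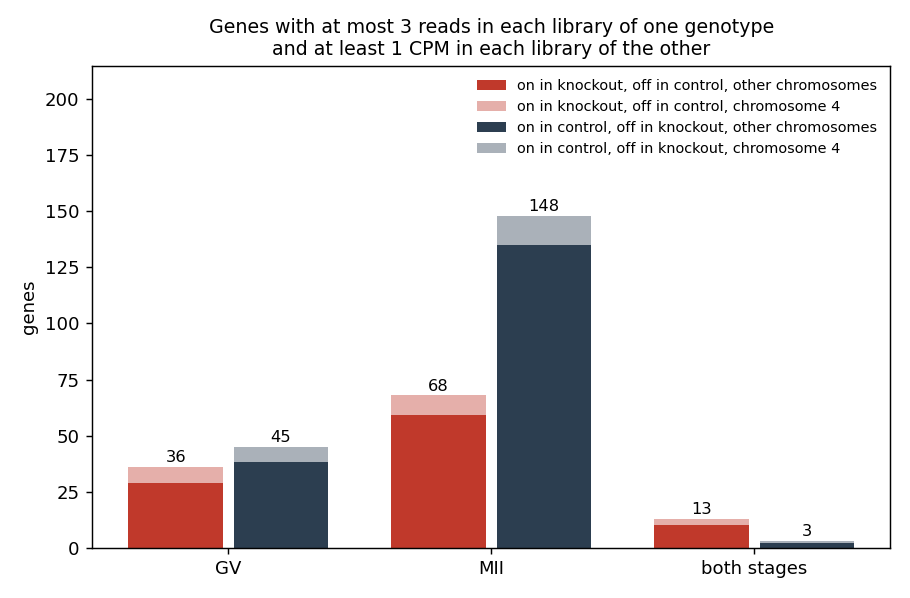
Number of genes with at least 1 CPM in each library of a genotype and at most 3 reads in each library of the other, at GV, at MII and at both stages, with chromosome 4 in a lighter shade. Genes on in knockout number 36, 68 and 13, and genes on in control number 45, 148 and 3.

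By Pearson correlation over the 8 libraries with the mean log2 CPM of the 10 genes, the most similar other tested genes were Tagap (r = 0.998), Gm5900 (0.997), Zfp990 (0.994), Wdr37 (0.994) and Gm5815 (0.993). The libraries share depth and genotype, so these values describe the pattern only. Tagap, a GTPase-activating protein of T cells, had 38 and 35 reads in knockout GV and 93 and 57 in knockout MII, and 0 in all 4 control libraries. Gm5900 and Gm5815 are processed pseudogenes, whose reads may come from their parent genes, and Zfp990 lies on chromosome 4. Wdr37, a WD-repeat protein gene, differs in kind: it was well expressed everywhere, at 66.7 ± 4.25 CPM in knockout GV and 42.2 ± 0.439 CPM in control GV.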

How the data were processed

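Total RNA of 8 oocyte libraries was sequenced. The authors deposited raw read counts per Ensembl gene, aligned to mm10 with Bowtie2 and counted with HTSeq, per the submitters' processing notes, which also name edgeR. Their versions, the annotation release and the strand setting are not stated there. Per the file headers, 2 columns share the name of the second control MII library, and both were used as control MII without a number. The 5 summary entries, 22% to 35.13% of the reads, stayed out.

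Symbols and positions came from GENCODE M21, which places 54809 identifiers. The fit used edgeR 4.0.16 under R 4.3.3 (filterByExpr, 15572 genes, TMM, 1 term per group over 8 libraries, 4 residual degrees of freedom, quasi-likelihood F-test, Benjamini-Hochberg adjustment over all genes, threshold 0.05). SE is the log2 fold divided by the square root of F. TPM use union exon length. The fit was tested on simulated data with known changes. The floor of 3 counts lay at 0.0894 to 0.17 CPM per library. The members and lists were chosen with earlier results of these data known. Named were all members, list genes and neighbours past the threshold, a paralogue per family, the 5 most similar genes and the genes at the rule's edge. Some genes, among them 1 neighbour left out of the neighbour counts, are not reported here. Alternatives were RLE scaling, library totals, no filter, DESeq2 1.42.0, leaving out each library and a replicate block.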

Additional observations from a re-analysis of the deposited data

How the results depend on the processing

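Over 51 pairs of a named gene and a comparison, 531 values under an alternative kept their direction and side of the threshold, 98 lost the call, 3 gained it and 2 reversed. The reversals were Pak3 at GV, with a log2 fold of 0.54 that ran from -4.20 (without knockout GV library 1) to 1.56 (without knockout GV library 2) and was -0.54 with the replicate block. The cause was not tested.

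Related genes at GV numbered 1 higher and 0 lower, against 0 higher with library totals as scaling, 5 and 2 with no low-count filter, 5 and 3 with DESeq2 and 12 and 8 with the replicate block. At MII they numbered 4 higher and 10 lower, against 8 and 22 with no filter and 9 and 19 with DESeq2. Neighbours at GV numbered 1 higher and 0 lower, against 3 and 3 with the block, and those at MII 3 lower, against 5 with no filter. Shares of all genes called under these alternatives are not given here, so nothing is read from these counts. The written rule was met by 91 genes, against 176 when control libraries could hold up to 10 reads and 12 when knockout libraries had to reach 5 CPM.

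Leaving out a library in turn gave 4 to 8 of the 10 genes called higher at GV, 8 to 10 at MII, and 2 to 4 higher and 2 to 3 lower in knockout MII against knockout GV. It gave 0 to 2 related genes higher and 0 to 1 lower at GV, and 2 to 4 higher and 5 to 10 lower at MII. Neighbours numbered 0 to 1 higher at GV and 1 to 2 lower at MII, and the written rule 103 to 252 genes. An arm left with 1 library was assumed to vary like the other groups.

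Same-numbered libraries did not deviate together (correlation 0.0985 between knockout and control GV, -0.0254 between knockout MII and knockout GV), so the numbers were not taken as pairs. No paired analysis was possible at MII because the control MII columns carry no number. With 2 libraries per group, a permutation test cannot go below p = 0.333.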
